A study of Mus musculus with 4 samples.

Results

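A pair of stretches of mouse chromosome 11, here called block 1 (chr11:87568001-87984000, GRCm38, 416 kb) and block 2 (chr11:96824001-98280000, 1456 kb), were described in Micro-C contact lists of WT and PATZ1 KO cells. They were chosen because earlier values of these same libraries, the contact ratios of PATZ1 KO over WT, were low there, so the ratio itself is a description and not a finding. Members were all listed pairs of 8 kb bins with at least 1 bin in a block and the other bin within 2 Mb. They came to 12681 of 23095428 pairs in embryonic stem cells (ESCs) and 13546 of 21005697 pairs in motor neurons (MNs). Block 1 took up 2613 of these pairs in ESCs and 2577 in MNs, and block 2 took up 10068 and 10969. Members held 163505 WT and 91568 PATZ1 KO contacts in ESCs, and 129097 and 68113 in MNs.

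The study asked how loss of PATZ1 bears on genome organization in E14 mouse ESCs and in cervical MNs made from them. WT ESCs, PATZ1 KO ESCs, WT MNs and PATZ1 KO MNs were each profiled in 1 library, so there is no replicate check, no p-value is given, and every interval (95%, exact) covers counting error only. ESCs of both genotypes were kept in LIF and 2i, and MNs of both genotypes were patterned in embryoid bodies with retinoic acid and a smoothened agonist from Day 2. The knockout was made with CRISPR/Cas9 and several clones were derived, but the sources used here do not give the clone used for Micro-C. The cell identity of the libraries cannot be checked from contacts between bins.

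In Micro-C, chromatin is fixed, digested to nucleosomes with micrococcal nuclease and religated, so that each contact counts a ligation between stretches of DNA that lay near each other in the nucleus. Contact falls steeply with distance along the chromosome, and most of it stays within domains whose borders are set by CTCF and cohesin. PATZ1 is a zinc finger protein of the POZ/BTB family with fingers similar to those of MAZ, which binds G-rich DNA and acts beside CTCF as an insulation factor. A contact count rises with the amount of a region's DNA in the library as well as with the contacts made per copy, and these cannot be told apart here. Genomic DNA input was not analysed here.

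The columns of the lists carry no sample name and were read as WT and PATZ1 KO after the order of the comparison's name, on which every direction below rests. The targeted gene, Patz1 (chr11:3288874-3309083, plus strand), was looked at beside this reading. The sources used here do not say that the edit lowers contacts of an 8 kb bin. Its bins therefore cannot decide which column is PATZ1 KO. In the 8 kb bin that holds its 5′ end, contacts within the bin were 158 in WT and 116 in PATZ1 KO ESCs, and 117 and 65 in MNs. Scaled by distance, the contacts of this bin up to 2 Mb stood at a log2 ratio of PATZ1 KO over WT of -0.38 (-0.57 to -0.19) in ESCs and -0.81 (-1.05 to -0.57) in MNs. The 2 remaining bins of Patz1 did not go the same way in both cell states: they stood at 0.21 and 0.10 in ESCs and at -0.45 and -0.49 in MNs. Only the 5′ bin was thus lower in both, and these ratios were not matched on GC. Summed autosomal contacts were between 108195604 and 166052904 per library. Pairs are listed only where both libraries had at least 1 contact, which hides pairs seen in 1 library alone and pulls ratios of sparse pairs towards 0.

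Block 1 holds 23 annotated genes, of which 15 are protein-coding and 2 are microRNAs, and block 2 holds 77, of which 41 are protein-coding and 10 are microRNAs. The microRNA sequences below are shown because their loci sit on different sides of the steps described further on: the pair of loci at Mir142 lies in the middle of block 1, and Mir152 lies inside the chosen edge of block 2 but outside its step. They are from RefSeq (GRCm38.p6), and capitals mark the seed, bases 2 to 8. Both miR-142a arms are read from the plus strand (chr11:87756867-87756887 and chr11:87756903-87756925), miR-142b from the minus strand of the same hairpin (chr11:87756906-87756925), and miR-152-3p from the plus strand within Copz2 (chr11:96850439-96850459). The miR-152-3p seed is shared with miR-148a-3p and miR-148b-3p, whereas no other mature sequence in the table shares the seeds of the miR-142 arms.
mmu-miR-142a-5p: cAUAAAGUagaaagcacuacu
mmu-miR-142a-3p: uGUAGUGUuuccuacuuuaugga
mmu-miR-142b: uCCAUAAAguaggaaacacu
mmu-miR-152-3p: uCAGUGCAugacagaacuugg

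To see in which library a block stands apart, each library was set against its own chromosome. Contacts within single 8 kb bins were used, with the median over bins, and the same bins were also divided by the level expected from autosomal bins of like GC content. In block 1, the 52 bins had a median of 204 contacts per bin in WT ESCs, and chromosome 11 outside the blocks had 217. In PATZ1 KO ESCs the block stood at 108 and the rest of the chromosome at 213. In MNs, block 1 stood at 138 against 141 in WT and at 67.5 against 145 in PATZ1 KO. Block 1 was thus at the level of its chromosome in both WT libraries and near the middle between that level and 0 in both PATZ1 KO libraries. Over the GC-matched level, its median was 0.966 in WT and 0.494 in PATZ1 KO ESCs, and 0.922 and 0.481 in MNs.

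Block 2 was different. Its 182 bins had a median of 352.5 contacts per bin in WT ESCs, against 217 for the rest of the chromosome. In PATZ1 KO ESCs the block stood at 216.5, against 213. In MNs, block 2 stood at 249.5 against 141 in WT and at 135 against 145 in PATZ1 KO. The data therefore go against calling block 2 depleted in the knockout: it was at the level of its chromosome in PATZ1 KO and above it in WT, in both cell states. Over the GC-matched level, the median of block 2 was 1.69 in WT and 0.981 in PATZ1 KO ESCs, and 1.64 and 0.959 in MNs.

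**Figure D1:**
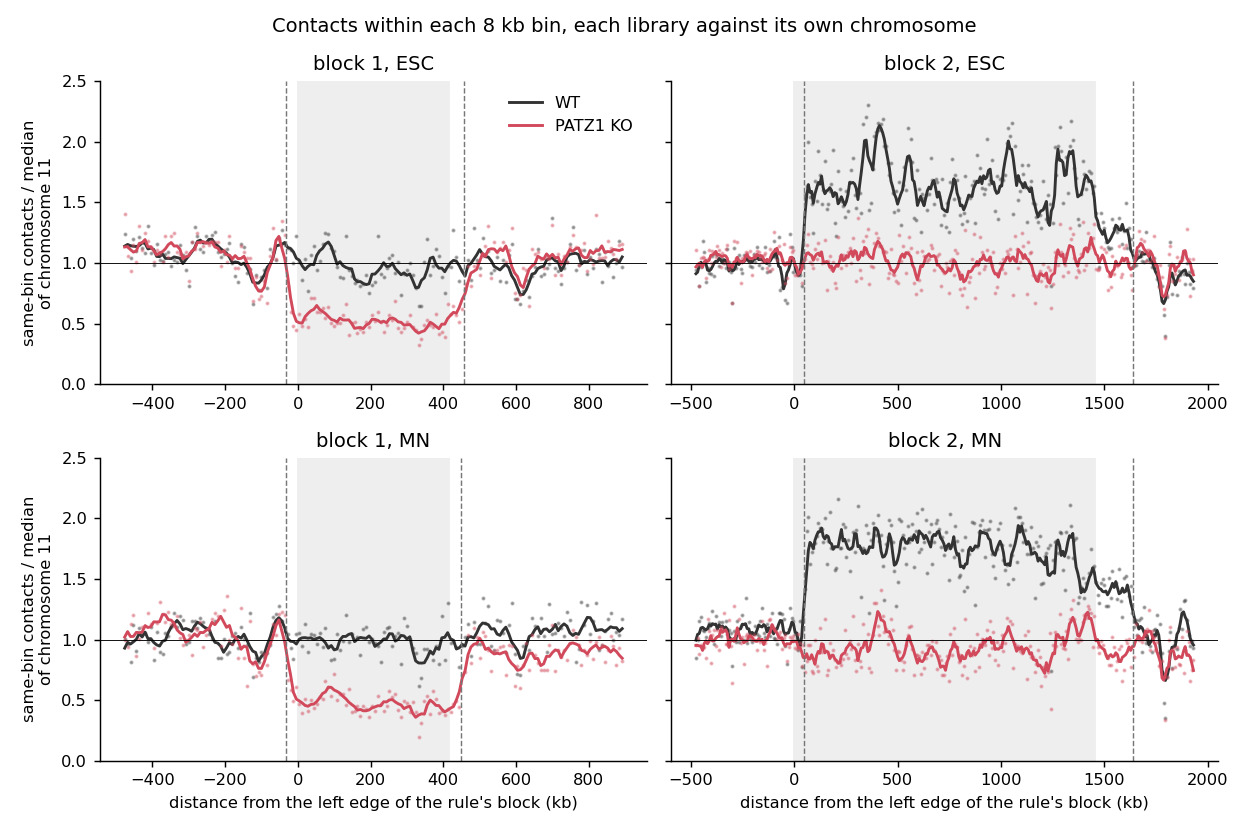
Contacts within each 8 kb bin divided by the median of chromosome 11 outside the blocks of the same library, against distance from the left edge of each block in kb. Points are bins, lines are means of neighbouring bins, the shaded part is the chosen block and dashed lines are the steps; in block 1 the PATZ1 KO line drops and the WT line stays near 1, and in block 2 the WT line rises and the PATZ1 KO line stays near 1.

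The 2 Mb on either side of both blocks stayed near the expected level, with medians from 0.933 to 1.10 of the GC-matched level over all 4 libraries. Windows of the length of block 2 across the autosomes had a summed level, as log2 over the GC-matched expectation, from -0.38 to 0.64 in WT ESCs (1st to 99th percentile of 1561 windows). Block 2 stood at 0.76 there, and 0 of these windows were as high. In WT MNs it stood at 0.70, with 0 of 1558 windows as high. For block 1 in PATZ1 KO, the same measure was -0.98 in ESCs, where 18 of 5515 windows of its length were as low, and -1.07 in MNs, where 15 of 5510 were. In WT, 51.3% of the windows were at or below block 1 in ESCs and 25.2% in MNs. Since the blocks were chosen on these libraries, these places among windows describe them and support nothing further.

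Contacts up to 400 kb, with those within a bin included, followed the same split. Of the 20438 WT contacts inside block 1 in ESCs, 10748 lay within a bin, so this is no separate measure. For contacts up to 400 kb, observed over expected contact inside block 1 was 0.929 in WT and 0.502 in PATZ1 KO ESCs, and 0.999 and 0.485 in MNs. Inside block 2 it was 1.54 in WT and 0.904 in PATZ1 KO ESCs, and 1.82 and 0.953 in MNs. The share of all autosomal contacts that fell inside block 1 was 0.0123% (0.0121% to 0.0125%) in WT ESCs and 0.0134% (0.0132% to 0.0136%) in WT MNs. For block 2 these shares were 0.0792% (0.0788% to 0.0797%) and 0.0960% (0.0954% to 0.0965%). The WT shares of both blocks were therefore larger in MNs than in ESCs beyond counting error, but these shares are matched on neither distance nor GC. The GC-matched WT median within a bin went the other way. From ESCs to MNs it went from 0.966 to 0.922 in block 1 and from 1.69 to 1.64 in block 2. No gain of the blocks in WT MNs is read from the shares. In PATZ1 KO, the share of block 1 was smaller in MNs, with 0.00673% (0.00660% to 0.00686%) in ESCs and 0.00603% (0.00589% to 0.00618%) in MNs. The PATZ1 KO shares of block 2 had overlapping intervals, with 0.0471% (0.0468% to 0.0475%) in ESCs and 0.0468% (0.0464% to 0.0472%) in MNs.

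The ratio of PATZ1 KO over WT was then taken for sums of contacts, with the WT sum scaled at each distance by the autosomal pairs that touch neither block. It is given on the log2 scale. Inside block 1, 20438 WT and 10394 PATZ1 KO contacts in ESCs gave -0.87 (-0.90 to -0.83), or 54.8% of the scaled WT sum. In MNs, 14481 and 6856 contacts gave -1.17 (-1.21 to -1.12), or 44.6%. Inside block 2, ESCs stood at -0.75 (-0.76 to -0.73), or 59.6%, and MNs at -1.04 (-1.06 to -1.03), or 48.6%. The apparent gap between cell states moved with base composition: chromosome 11 outside both blocks stood at 0.01 in ESCs but at -0.11 in MNs, and matching pairs on GC as well as distance brought these to -0.01 and -0.02. With that matching, block 1 stood at -0.95 in ESCs and -0.91 in MNs, and block 2 at -0.83 and -0.75. The blocks have a GC content of 47.0% and 48.3%, against 43.8% for the chromosome, and hold 0 unknown bases.

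**Figure D2:**
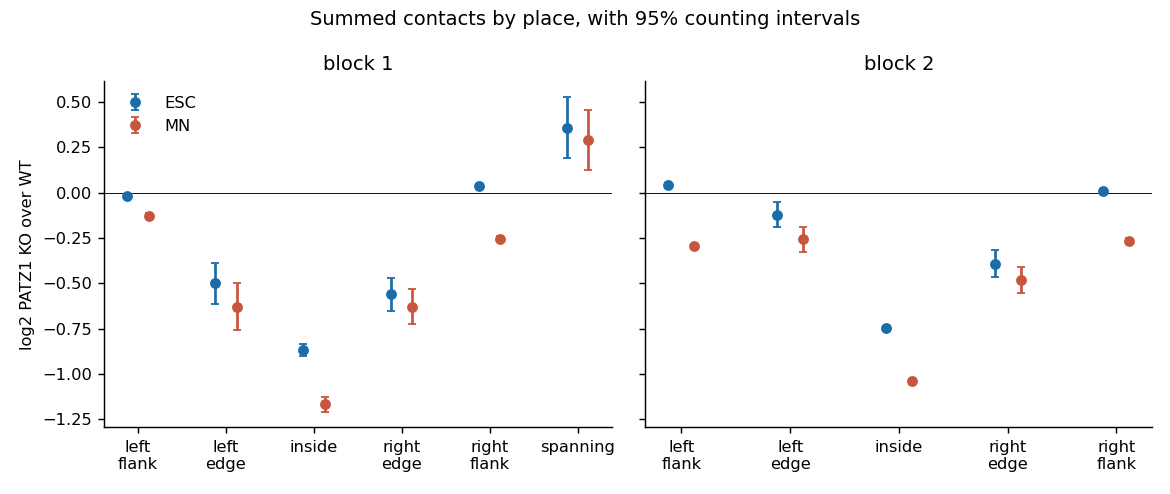
Log2 of summed contacts, PATZ1 KO over WT, scaled at each distance, with 95% counting intervals, for the 2 Mb flanks, contacts across each edge, contacts inside and contacts spanning block 1. Inside sums lie lowest, between -1.17 and -0.75, edge sums lie above inside sums in both blocks and cell states and below both flanks except at the left of block 2 in MNs, and contacts spanning block 1 lie above 0 at 0.36 in ESCs and 0.29 in MNs.

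Every 8 kb bin of block 1 stood under -0.5 for its contacts up to 2 Mb. This held for 52 of 52 bins in both cell states, where the background was 0.0875% of 291483 autosomal bins in ESCs and 1.64% of 290570 in MNs. In block 2, 172 of 182 bins stood under -0.5 in ESCs and 172 in MNs. The background counts the bins of both blocks too: of the 255 autosomal bins under -0.5 in ESCs, 52 and 172 are theirs. The same holds for the background in MNs and after matching on GC. After matching on GC the background was 0.0916% in ESCs and 0.102% in MNs, and block 1 kept a count of 52 in both while block 2 had 174 and 169. The contrast is the one that chose the blocks, so these counts are read as a description only. Bins of block 1 ranged from -1.15 to -0.56 in ESCs, with a median of -0.84, and from -1.44 to -0.68 in MNs, with a median of -1.10. Bins of block 2 ranged from -1.12 to 0.00 in ESCs, with a median of -0.76, and from -1.42 to -0.23 in MNs, with a median of -1.08. The bins of block 2 that were not under -0.5 lay mostly at its ends: in both cell states they included the first 48 kb of the block.

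As whole windows, both blocks had few or no counterparts on the autosomes. Of 5709 windows as long as block 1 in ESCs, 1 (0.0175%) stood under -0.5 for contacts inside, at chr17:39520001-39936000 with -0.72. Of 5700 such windows in MNs, 1 (0.0175%) stood under -0.5, at chr10:79872001-80288000 with -0.50. Of 1635 windows as long as block 2, 0 (0%) stood under -0.5 in ESCs and 0 (0%) in MNs. The lowest of these long windows were at -0.30 in ESCs and -0.46 in MNs. The blocks were chosen on this same ratio, so their place among windows was set beforehand and is a description only. These windows were scaled by distance and not matched on GC.

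**Figure D3:**
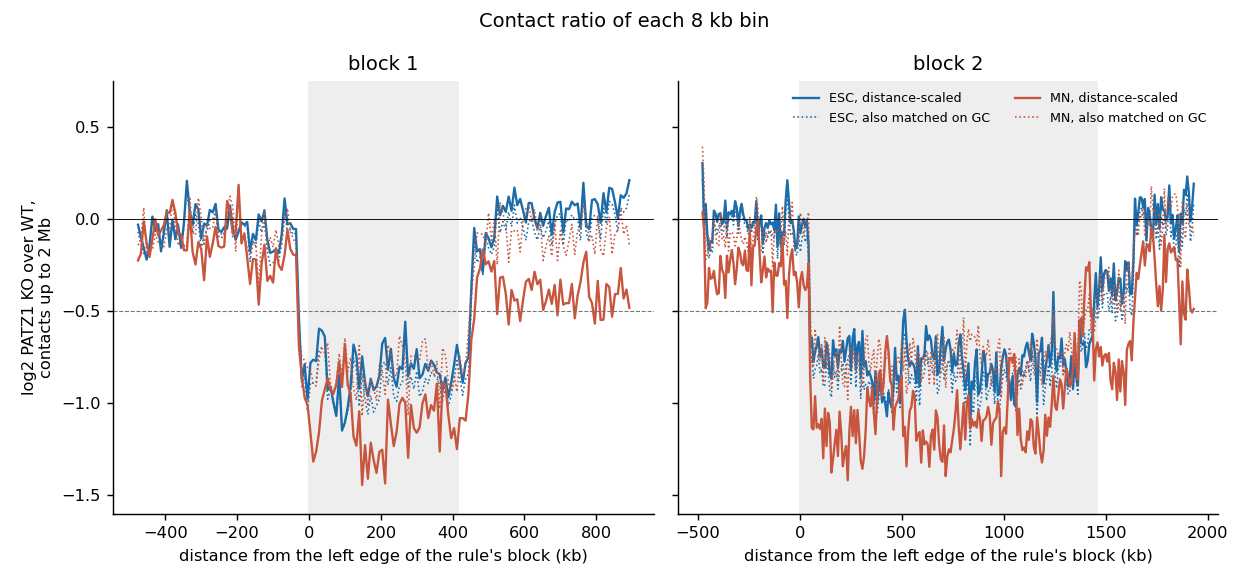
Log2 contact ratio of PATZ1 KO over WT of each 8 kb bin for contacts up to 2 Mb, against distance from the left edge of each block in kb, scaled by distance (solid) or by distance and GC (dotted). Bins inside the shaded blocks have medians of -0.84 and -0.76 in ESCs and -1.10 and -1.08 in MNs, and right of block 2 the lines come back in more than 1 step.

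The borders of the low ratios did not sit exactly at the chosen edges. For each edge, the split within 200 kb that best separated 25 bins on either side was taken from the ratio of same-bin contacts. The left step of block 1 lay at 87536001 in both cell states, 32 kb outside the chosen edge. Its right step lay at 88024000 in ESCs and at 88016000 in MNs. The left step of block 2 lay at 96872001 in both, 48 kb inside the chosen edge, and its right step at 98464000 in both, 184 kb outside. In this search the positions in ESCs and MNs differed by at most 1 bin. Both cell states entered the choice of the blocks and MNs were made from ESCs, so this is no independent support. Where sums, levels or insulation are taken at the steps, the steps found in ESCs serve for both cell states. In ESCs the bins on either side of the left step of block 1 averaged 0.05 outside and -0.84 inside, and those at the left step of block 2 averaged 0.12 and -0.58.

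Single bins near the steps are given by their ratio for contacts up to 2 Mb, with counts within the bin beside it where shown. At the left of block 1 in ESCs, the bin at 87528001 stood at -0.05, with 249 WT and 262 PATZ1 KO contacts within the bin. The next bin, 87536001, stood at -0.54 with 243 and 173 contacts, and the one after it, 87544001, at -0.88 with 240 and 127. On the right of block 1, 88008001 stood at -0.75, 88016001 at -0.38 and 88024001 at -0.05 in ESCs. Most of the change was therefore passed within 2 bins at either side in ESCs. In MNs the bin 87528001 stood at -0.20, 87536001 at -0.69 and 87544001 at -0.85. The right side of block 1 in MNs was more gradual, with 88008001 at -0.95, 88016001 at -0.66, 88024001 at -0.54 and 88032001 at -0.32, and with contacts up to 40 kb its step lay at 88032000.

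At the left of block 2 the WT level rose at the step in both cell states. In ESCs the bin at 96864001 had 222 WT and 206 PATZ1 KO contacts within the bin, and the next bin, 96872001, had 340 and 220. In MNs the same bins had 122 and 138 contacts, then 200 and 106. Over 25 bins on either side of that step, the median in WT ESCs went from 213 to 340 contacts per bin and in PATZ1 KO ESCs from 218 to 220. In MNs, the WT median went from 149 to 254 and the PATZ1 KO median fell from 146 to 120, which is from 1.00 to 0.898 of the GC-matched level. At the left step of block 1 in ESCs, by contrast, the WT median went from 228 to 221 and the PATZ1 KO median from 222 to 114.

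The first 48 kb of block 2, between the chosen edge and the step, stood at 0.05 (-0.05 to 0.15) in ESCs and at -0.25 (-0.38 to -0.13) in MNs, where matching on GC gave 0.06. To the right of block 2, a strip of 184 kb (chr11:98280001-98464000) lay between the chosen edge and the step. Its median level in WT ESCs was 278 contacts per bin, above the chromosome's 217 and below the 352.5 of block 2. In WT MNs it was 203, between 141 and 249.5. In PATZ1 KO the strip had 207 in ESCs and 134 in MNs, near the chromosome's 213 and 145. The summed ratio of the strip stood at -0.33 (-0.38 to -0.29) in ESCs and at -0.83 (-0.89 to -0.78) in MNs. After matching on GC it stood at -0.48 and -0.42. On the right, the WT level thus came down in more than 1 step in both cell states. In MNs it was already lower inside the chosen edge: the WT count went from 259 in the bin at 98184001 to 184 in the next, and from there to the edge the bins held 172 to 246 contacts. In ESCs, the WT count was 284 to 296 in the bins at 98192001 and 98200001 and again 341 to 399 from 98208001 to the edge. With contacts up to 40 kb in place of same-bin contacts, the right step in ESCs moved to 98296000, at the start of that strip.

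Summed up to 2 Mb, contacts across an edge, with 1 bin inside and 1 outside, lay above those inside. The sums inside hold more near pairs, and in block 1 the order was not kept throughout. In MNs at 16 to 40 kb, its edges together stood at -1.61 (-1.97 to -1.27) and its inside at -1.33 (-1.45 to -1.22). From 48 kb on, and in ESCs at each shared distance, its edges stood above its inside. With a mean count of at least 10, its edges stood at -0.87 and its inside at -0.85 in ESCs, and at -1.42 and -1.20 in MNs. As sums, contacts across an edge also lay below both flanks of their block. Those at the left of block 2 in MNs were an exception and stood at the level of the flanks. Across the edges of block 1, ESCs stood at -0.50 (-0.61 to -0.39) on the left and -0.56 (-0.65 to -0.47) on the right. In MNs both sides stood at -0.63. Across the edges of block 2, ESCs stood at -0.12 (-0.19 to -0.05) on the left and -0.39 (-0.47 to -0.32) on the right, and MNs at -0.26 (-0.33 to -0.19) and -0.48 (-0.55 to -0.41). The flanks of 2 Mb stood between -0.02 and 0.04 in ESCs and between -0.29 and -0.13 in MNs. With both edges placed at the steps, contacts summed over the edges of block 2 stood at -0.08 in ESCs and -0.24 in MNs, nearer to the flanks.

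Both PATZ1 KO libraries had little contact across the edges of block 1, but so had WT. Observed over expected contact up to 400 kb across its left edge was 0.471 in WT and 0.313 in PATZ1 KO ESCs, and 0.524 and 0.338 in MNs. Across its right edge it was 0.674 and 0.414 in ESCs, and 0.574 and 0.337 in MNs. Only pairs listed in both libraries enter, which at the left edge were 421 of 1275 possible pairs in ESCs and 372 of 1275 in MNs. WT contacts of pairs unseen in PATZ1 KO are hidden, so the low WT values are not those of WT alone. Across the left edge of block 2, WT and PATZ1 KO were closer, at 0.772 and 0.699 in ESCs and 0.907 and 0.742 in MNs. Across the right edge of block 2 they lay farther apart, at 0.911 and 0.641 in ESCs and 1.21 and 0.824 in MNs. An insulation score of the WT libraries, which measures how little contact crosses a bin in a square of 250 kb, was used to see whether these edges are domain borders. The left edge of block 1 lay at percentile 4.40 of chromosome 11 in ESCs and 4.26 in MNs, where a low percentile means strong insulation. Its right edge lay at 11.3 and 5.92. The left edge of block 2 lay at 29.1 and 47.3 and its right edge at 38.9 and 70.0, so that the chosen edges of block 1 had the lower percentiles. The score is not corrected for the level of a region, and block 2 lay above its chromosome in WT. The percentiles of the blocks therefore mix level with insulation, and no difference in insulation between the blocks is read from them. When the steps were used in place of the chosen edges, the left of block 1 lay at 3.69 in ESCs but the right at 35.4. In MNs these lay at 6.23 and 25.4. The left and right of block 2 lay at 15.7 and 34.1 in ESCs, and at 29.2 and 67.5 in MNs. The right of block 1 thus had a lower percentile at the chosen edge than at the step in both cell states.

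The ratio inside the blocks depended on distance. In block 1 of ESCs it was -0.84 for contacts within a bin, -0.97 for those 48 to 200 kb apart and -0.69 for those 208 to 400 kb apart. In block 2 of ESCs contacts within a bin stood at -0.65, those 48 to 200 kb apart lower at -1.01 (-1.05 to -0.98), and those 408 to 1000 kb apart at -0.39 (-0.50 to -0.29). In MNs, block 2 stood at -0.98 within a bin, at -1.19 for 16 to 40 kb and at -0.55 for 408 to 1000 kb. Ratios were nearest to 0 at long distance, where most listed pairs hold few contacts and pairs seen in 1 library alone are hidden. Across the edges of block 1 in ESCs, the ratio was -0.80 for contacts 16 to 40 kb apart, -0.51 for 208 to 400 kb and -0.13 (-0.29 to 0.02) for 408 to 1000 kb. In MNs it was -1.61 (-1.97 to -1.27) for 16 to 40 kb, where contacts inside block 1 stood at -1.33 (-1.45 to -1.22). For 208 to 400 kb it was -0.56 in MNs, and for 408 to 1000 kb -0.41.

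Pairs that bridge block 1, with 1 bin on each outer side, are no members and were not used by the rule. They held 517 WT and 645 PATZ1 KO contacts in ESCs, a log2 ratio of 0.36 (0.19 to 0.53), and 544 and 688 in MNs, 0.29 (0.12 to 0.45). They are given by how close both bins lay to the block. Where the farther bin lay within 48 kb of its edge, contacts went from 19 to 69 in ESCs, 1.93 (1.18 to 2.75), and from 5 to 16 in MNs, 1.65 (0.14 to 3.46). At 48 to 96 kb they went from 42 to 84 in ESCs, 1.07 (0.51 to 1.64), and from 53 to 113 in MNs, 1.07 (0.58 to 1.57). From 96 to 200 kb the values were 0.50 (0.09 to 0.92) in ESCs and 0.39 (-0.05 to 0.85) in MNs. Beyond 200 kb the intervals included 0 in both cell states, but the 102 listed pairs at 200 to 400 kb in ESCs held only 120 WT contacts and the 117 in MNs only 149. Since a pair needs 1 contact in each library to be listed, ratios there are held near 0, and no trend with distance is read from these bands. Counted from the steps in place of the chosen edges, contacts within 48 kb went from 31 to 75 in ESCs, 1.34 (0.72 to 1.99), and from 30 to 85 in MNs, 1.48 (0.86 to 2.13). Within 200 kb of the chosen edges in all, bridging contacts went from 149 to 273 in ESCs, 0.93 (0.64 to 1.23), and from 133 to 230 in MNs, 0.76 (0.45 to 1.08).

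**Figure D4:**
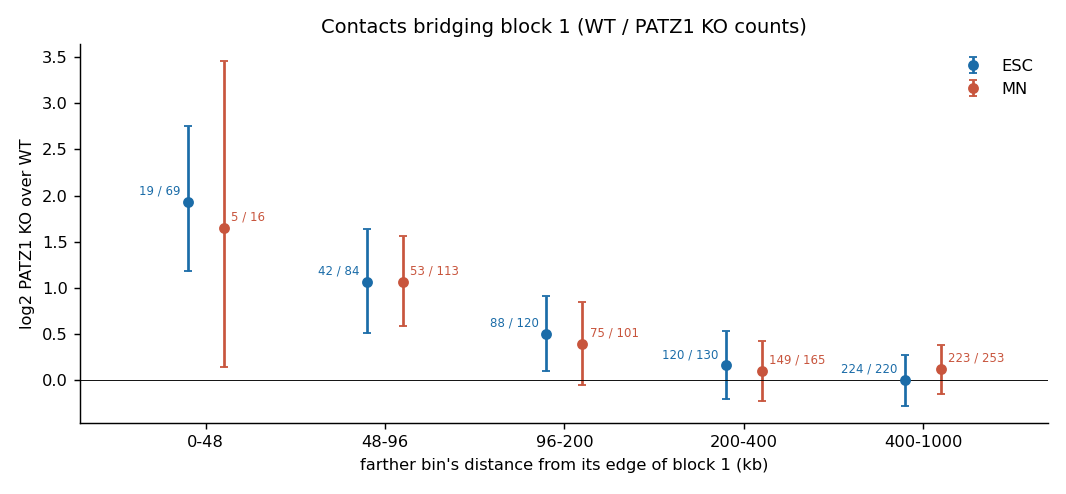
Log2 ratio of PATZ1 KO over WT for contacts bridging block 1, by the distance in kb of the farther bin from its edge, with 95% counting intervals and WT and PATZ1 KO counts beside each point. Within 48 kb the ratio is 1.93 in ESCs and 1.65 in MNs; beyond 200 kb, where listed pairs hold little more than the required 1 contact per library, ratios are held near 0 and show no trend.

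Bridging contacts were also summed for autosomal windows as long as block 1, with each bin within 200 kb of its window edge. Of these, 0 of 5344 windows in ESCs (0%) and 0 of 5153 in MNs (0%) stood over 0.5. The highest stood at 0.43 (ESCs) and 0.45 (MNs). The 99th percentile of the windows was 0.23 in ESCs and 0.31 in MNs. Within 200 kb of its chosen edges, block 1 stood at 0.93 in ESCs and 0.76 in MNs, above the highest window in each. The 0.36 and 0.29 over all bridging pairs of block 1 also hold farther pairs and are not set against these windows. Since the blocks were chosen on these libraries, this place among windows is a description only. A few pairs of bins at the corner of the block, picked after their values were seen, show where the bridging contacts of the ESC libraries concentrated. The bins at 87528001 and 88016001, 488 kb apart, had 1 WT and 20 PATZ1 KO contacts. The bins at 87528001 and 88024001 had 6 and 16, and those at 87536001 and 88016001 had 1 and 13. All of them lie at the steps found from same-bin contacts, not at the chosen edges. In MNs the highest counts near that corner were 4 and 11 for 87528001 with 88032001. The next were 1 and 8, for 87528001 with 88024001 and for 87496001 with 88040001, and the latter pair lies farther out from the steps. Of 578619 other autosomal pairs 440 to 520 kb apart with 1 WT contact in ESCs, the median PATZ1 KO count was 1 and the highest was 20, next to 16. In MNs, the highest of 561994 such pairs had 14.

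For block 2 the bridging pairs were too sparse to show either a rise or its absence. The list held 17 of them in ESCs, with 17 contacts in each library, and 6 in MNs, with 6 WT and 8 PATZ1 KO contacts. The same holds for contacts joining the inner ends of block 2, with 1 bin in its first and 1 in its last 200 kb. They came to 33 in WT and 27 in PATZ1 KO ESCs over 25 listed pairs, with no count over 3. Between blocks 1 and 2, 8 of 9464 possible pairs were listed in ESCs and 3 in MNs, each with 1 contact in either library.

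Within the blocks, the pattern of contact was compared as observed over expected contact per pair of bins, over pairs with a mean count of at least 10. These pairs share bins and libraries, so correlations are given without a p. In block 2, Pearson's r between WT and PATZ1 KO was 0.62 over 1257 pairs in ESCs and 0.59 over 1149 pairs in MNs. In block 1 it was 0.60 over 211 pairs in ESCs and 0.20 over 163 in MNs. Without contacts within a bin or between neighbouring bins, r was 0.62 and 0.58 in block 2, and in block 1 it was 0.50 over 108 pairs in ESCs and -0.06 over 60 pairs in MNs. The median of log2 observed over expected contact of these pairs in block 2 was 0.87 in WT and 0.03 in PATZ1 KO ESCs, and 1.10 and 0.09 in MNs. In block 1 the medians were 0.06 and -0.87 in ESCs, and in MNs the median difference between PATZ1 KO and WT was -1.15. Since the minimum is on the mean of both libraries, many pairs pass through the higher WT count, and these medians describe the pairs that passed and not the level of the blocks. The minimum also selects on the counts that are correlated, so no loss of pattern is read from the low r of block 1 in MNs.

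Strong contacts, taken as pairs 40 kb or more apart with a mean count of at least 20, numbered 31 in ESCs and 12 in MNs in block 2, and 0 in block 1 in either. A pair can pass through its WT count alone, so that neither these numbers nor the ratios of the pairs below are read as a difference between blocks or libraries. Those with the highest mean of observed over expected contact are described. In ESCs the strongest joined 97896001 with 97984001, a bin that holds an end of Plxdc1, which codes for a transmembrane plexin domain protein, and part of Arl5c. It had 58 WT and 21 PATZ1 KO contacts, and the latter is still 4.96 times the expected contact. Beside it, 97888001 with 97984001 had 31 and 13 contacts, and 97904001 with 97984001 had 39 and 9. The first of these had a ratio of -1.31 (-2.11 to -0.57), whose interval includes the -1.01 of the block at 48 to 200 kb. In MNs the strongest joined 97488001, a bin of Arhgap23 and 4933428G20Rik, with 97616001, with counts of 28 in WT and 13 in PATZ1 KO, 12.2 and 6.30 times the expected contact. The next joined 96864001 with 96904001 across the left step of block 2, with 35 and 30 contacts, a ratio of -0.22 (-0.97 to 0.53). The third joined 96976001, in Sp2, with 97024001, a bin that holds the end of Sp6 and part of Scrn2, with 39 and 12 contacts.

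The genes of the blocks followed the steps, which were placed on ratios of these same bins, so this is no separate support. Contacts up to 2 Mb of the bins a gene overlaps were summed, so that genes that share a bin share counts. These are contact counts and no measure of expression. All 15 protein-coding genes of block 1 lie wholly between its steps. They ranged from -0.98 to -0.69 in ESCs, with a median of -0.80, and from -1.24 to -0.89 in MNs, with a median of -1.08. Of the 41 protein-coding genes of block 2, 39 lie between its steps and ranged from -0.97 to -0.62 in ESCs and from -1.31 to -0.50 in MNs. After matching on GC, the MN ranges were -0.87 to -0.66 in block 1 and -0.90 to -0.52 in block 2, and the order of genes changed, so that differences between the cell states of single genes below move with base composition. The other 2, Nfe2l1 and Copz2, lie wholly to the left of the left step. All autosomal bins together had a median of 0.00 in either cell state.

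**Figure D5:**
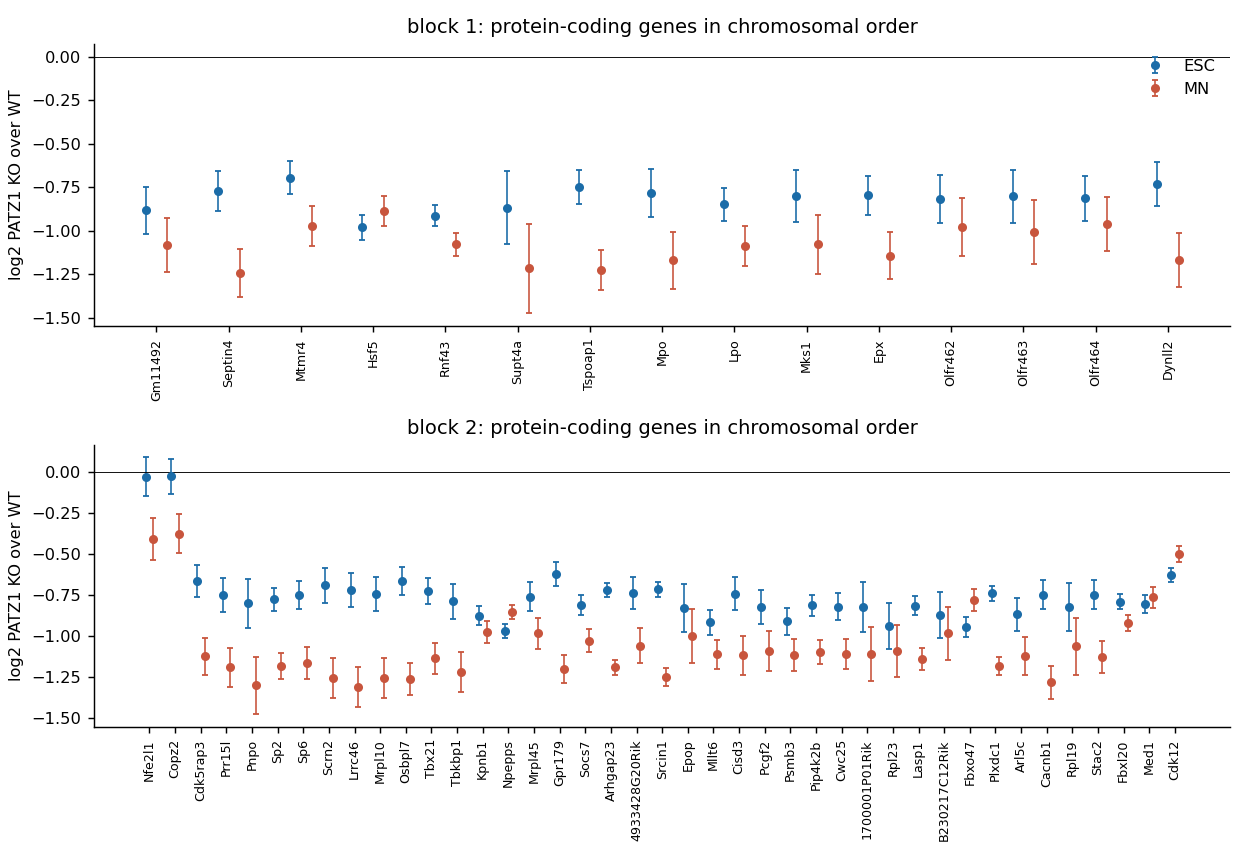
Log2 contact ratio of PATZ1 KO over WT with 95% counting intervals for the bins of each protein-coding gene, in chromosomal order, in ESCs and MNs. Genes of block 1 lie between -0.98 and -0.69 in ESCs; in block 2, Nfe2l1 and Copz2 lie apart from the others in ESCs, at -0.03 each.

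Outside block 1 on the left, Tex14, needed for bridges between male germ cells, straddles the step and had 13517 WT and 11209 PATZ1 KO contacts in ESCs, -0.15. Just inside the step lie Gm11492, with 1362 and 681 contacts and -0.88, and Septin4, a filament-forming GTPase, with 1753 and 946 and -0.77. In MNs, Septin4 had 1413 and 627 contacts, -1.24, or -0.87 after matching on GC. Mtmr4, a phosphoinositide phosphatase, had 2564 and 1459 contacts in ESCs, -0.69, the highest of the block. Hsf5, a heat shock factor family member of male germ cells, was the lowest in ESCs with 4867 and 2265 contacts, -0.98, and had 3119 and 1757 in MNs, -0.89. Matched on GC it stood at -0.99 in ESCs and -0.84 in MNs. Rnf43, a ubiquitin ligase that removes Wnt receptors from the cell surface, spans 10 bins and had 7218 and 3520 contacts in ESCs, -0.91, and 5181 and 2556 in MNs, -1.08. Supt4a, a subunit of the elongation factor DSIF, stood at -0.87 in ESCs and -1.21 in MNs. Mir142, whose products were printed above and are known from blood cells, lies in a bin with 526 and 259 contacts in ESCs, -0.91 (-1.13 to -0.69), and 425 and 172 in MNs, -1.38 (-1.64 to -1.12).

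The right-hand part of block 1 carries a cluster of peroxidase genes. Mpo, the peroxidase of neutrophil granules, had 1253 and 670 contacts in ESCs, -0.78, and 960 and 445 in MNs, -1.17. Lpo, the peroxidase of milk and other secretions, had 2676 and 1371 in ESCs, -0.85, and 1877 and 923 in MNs, -1.09. Epx, the eosinophil peroxidase, had 1859 and 986 in ESCs, -0.80, and 1422 and 676 in MNs, -1.14. The intervals of these genes overlapped each other in ESCs and in MNs. Tspoap1, which binds presynaptic RIM proteins, stood at -0.75 and -1.22, and Mks1, a protein of the ciliary transition zone, at -0.80 and -1.08. Dynll2, a dynein light chain at the right edge, reaches past the chosen edge and had 1462 and 812 contacts in ESCs, -0.73, and 1098 and 509 in MNs, -1.17. Beyond the right step, Srsf1, a splicing factor, had 1656 and 1297 contacts in ESCs, -0.24, and 1190 and 1064 in MNs, -0.21. Vezf1, a zinc finger transcription factor farther to the right, stood at -0.12 in ESCs and -0.25 in MNs.

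At the left of block 2, Cbx1, a heterochromatin protein gene outside the chosen edge, stood at -0.10 in ESCs and -0.28 in MNs. Nfe2l1, a transcription factor that raises proteasome genes, had 1222 WT and 1105 PATZ1 KO contacts in ESCs, -0.03 (-0.15 to 0.09). Copz2, a COPI coat subunit, had 1480 and 1339, -0.03 (-0.13 to 0.08), and the bin of Mir152 within it had 752 and 672, -0.05 (-0.20 to 0.11). In MNs they stood at -0.41, -0.38 and -0.39, and after matching on GC at -0.03, -0.04 and -0.06. The next coding gene, Cdk5rap3, a regulatory subunit of a protein-modifying ligase, had 2255 and 1308 contacts in ESCs, -0.66 (-0.76 to -0.56), and 1972 and 940 in MNs, -1.12. The change from Copz2 to Cdk5rap3 was thus larger than the counting intervals of both genes. On the same side but farther out, the HoxB cluster stood outside: Hoxb1 was at -0.00 and Hoxb13 at 0.09 in ESCs, and at -0.47 and -0.39 in MNs. After matching on GC they stood at -0.06 and -0.00 in ESCs and at -0.21 and -0.03 in MNs.

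Several of the named genes of block 2 code for transcription and chromatin regulators. Sp2, a zinc finger factor of the Sp family, had 4560 and 2451 contacts in ESCs, -0.78, and stood at -1.18 in MNs. Tbx21, the T-box factor of type 1 helper T cells, stood at -0.72 and -1.14. Pcgf2, a Polycomb repressive complex 1 subunit, stood at -0.82 and -1.09, and Mllt6, a partner of histone methylation complexes, at -0.92 and -1.11. Med1, a Mediator subunit, had 7424 and 3917 contacts in ESCs, -0.80, and 5535 and 3393 in MNs, -0.76. Cdk12, a kinase of the RNA polymerase II tail in the last bins of the block, had 11856 and 7050 in ESCs, -0.63 (-0.67 to -0.59), and 8308 and 6114 in MNs, -0.50 (-0.54 to -0.45), the nearest to 0 of the 39 genes in MNs with and without matching on GC.

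Other named genes code for proteins of protein synthesis, transport and turnover. Rpl23, of the large ribosomal subunit, had 1287 and 620 contacts in ESCs, -0.94, and stood at -1.09 in MNs, and Rpl19 stood at -0.82 and -1.06. Kpnb1, the nuclear import receptor importin beta, stood at -0.88 and -0.97. Npepps, a cytosolic aminopeptidase, had 14512 and 6826 contacts in ESCs, -0.97 (-1.01 to -0.93), and stood at -0.85 (-0.90 to -0.81) in MNs. Psmb3, a proteasome subunit, stood at -0.91 and -1.11. The F-box genes Fbxo47 and Fbxl20 stood at -0.94 and -0.79 in ESCs, and at -0.78 and -0.92 in MNs.

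Signalling, cytoskeletal and neuronal genes made up the rest of those named. Gpr179, a receptor of retinal bipolar cells, had 3920 and 2354 contacts in ESCs, -0.62, and stood at -1.20 in MNs, or at -0.72 and -0.84 after matching on GC. Srcin1, a synaptic scaffold protein, stood at -0.71 and -1.25, Cacnb1, a calcium channel subunit, at -0.75 and -1.28, and Plxdc1 at -0.74 and -1.18. Socs7, of the suppressors of cytokine signalling, stood at -0.81 and -1.03, Pip4k2b, a lipid kinase, at -0.81 and -1.10, and Lasp1, an actin-binding protein, at -0.81 and -1.14. In the strip right of the block, Neurod2, a neuronal transcription factor, had 1555 and 1181 contacts in ESCs, -0.28 (-0.39 to -0.17), and 1236 and 767 in MNs, -0.75 (-0.88 to -0.62). Erbb2, a receptor tyrosine kinase in the same strip, had 3229 and 2449 in ESCs, -0.28, and 2646 and 1585 in MNs, -0.80. After matching on GC, Neurod2 stood at -0.40 in ESCs and -0.29 in MNs, and Erbb2 at -0.40 and -0.37. Past the strip, Ikzf3, a lymphoid zinc finger factor, stood at 0.04 (-0.01 to 0.08) in ESCs and -0.21 in MNs.

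Promoters were read as the 250 bases before to 50 bases after each RefSeq start (GRCm38.p6), and the letters GGGAGGG or CCCTCCC, a G-rich motif of the kind bound by MAZ, were searched on the strand of the gene, so that either spelling covers both strands. Of the protein-coding genes, 11 of 15 in block 1 and 25 of 41 in block 2 had a promoter in the table. The motif was held by 6 of 14 promoters of these genes in block 1 (42.9%) and 20 of 36 in block 2 (55.6%), beside 27.2% of 1536 protein-coding promoters on chromosome 11. A gene can have several promoters here and neighbouring promoters can overlap. A match is a description of letters and says nothing of binding, and the GC content of the blocks is above that of the chromosome. The promoters shown are those of the first coding gene inside the left step of block 2, of the last gene of the block and of the first named gene of the strip, and they are written 5′ to 3′ on the strand of the gene with the motif in capitals. Cdk5rap3 (minus strand, chr11:96916465-96916764) holds no match, Cdk12 (plus strand, chr11:98203055-98203354) holds 1 of each spelling, and Neurod2 (minus strand, chr11:98329596-98329895) holds 2 overlapping matches of GGGAGGG.
Cdk5rap3: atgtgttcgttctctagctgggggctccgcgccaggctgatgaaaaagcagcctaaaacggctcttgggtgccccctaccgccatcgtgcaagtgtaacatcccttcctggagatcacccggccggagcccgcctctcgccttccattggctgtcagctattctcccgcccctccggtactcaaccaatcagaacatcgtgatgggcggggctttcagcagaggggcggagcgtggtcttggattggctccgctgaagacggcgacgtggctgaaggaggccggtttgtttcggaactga
Cdk12: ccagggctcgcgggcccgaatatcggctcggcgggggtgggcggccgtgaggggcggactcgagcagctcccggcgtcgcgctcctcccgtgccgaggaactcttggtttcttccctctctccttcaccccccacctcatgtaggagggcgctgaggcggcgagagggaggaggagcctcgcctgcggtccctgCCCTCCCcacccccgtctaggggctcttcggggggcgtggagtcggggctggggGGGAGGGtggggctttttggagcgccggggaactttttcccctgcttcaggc
Neurod2: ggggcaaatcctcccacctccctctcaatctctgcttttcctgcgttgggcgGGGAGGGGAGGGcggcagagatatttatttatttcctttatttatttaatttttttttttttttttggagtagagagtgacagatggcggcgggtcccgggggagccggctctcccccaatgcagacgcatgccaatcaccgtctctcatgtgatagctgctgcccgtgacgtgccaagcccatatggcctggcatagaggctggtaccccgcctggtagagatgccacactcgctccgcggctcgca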

How the data were processed

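Micro-C libraries of WT and PATZ1 KO ESCs and MNs, 1 per group, were grouped by their sample labels. The company that made the kit mapped reads and built contact matrices for the authors, and compared WT with PATZ1 KO by HiCcompare; the aligner is not given in the sources used here. The build mm10 is taken from the submitters' processing notes. The interaction frequencies deposited by the authors are raw counts, whole numbers of at least 1, for pairs of 8 kb bins of 1 chromosome, and their adjusted interaction frequencies are a signal after joint normalization by distance. The authors' own comparison columns hold log ratios, scores and p-values and were not used.

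Sums of counts were compared as log2 ratios, with the WT sum scaled at each distance by autosomal pairs outside both blocks. Exact Clopper-Pearson intervals at the 95% level were added. Bins and windows served as background where both libraries together held at least 100 contacts (bins and spanning windows) or 1000 contacts (inside windows). GC matching and edges at the steps were added after the data were seen. The other alternatives were autosomal totals, flanks as reference, adjusted frequencies, a mean count of at least 10, other distances, smaller blocks, another threshold and other edge searches. The ratio, interval and edge calculations were tested on simulated data. Genes are from GENCODE M21, and sequences from RefSeq. Named genes were those at the block ends, the nearest outside, the 3 lowest and 3 highest in ESCs per block and a list of genes. The members and lists were chosen with earlier results of these data known. Python 3.11.15, NumPy 2.4.6, SciPy 1.17.1 and Matplotlib 3.10.9 were used.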

Additional observations from a re-analysis of the deposited data

How the results depend on the processing

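No paired analysis was possible because each group had 1 library and the columns carry no replicate number. In all, 111 alternatives to the sums, counts and edges were run. The sums inside both blocks, across their edges and spanning block 1 kept their sign in each of theirs. The sparse sums spanning block 2, whose intervals include 0, changed sign: in ESCs 0.01 became -0.01 with the flanks as reference and -0.00088 after matching on GC, and in MNs 0.34 became -0.07 with edges at the steps. Contacts inside a block stayed between -0.95 and -0.71 in ESCs and between -1.20 and -0.75 in MNs.

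Matching on GC, which was added after the data were seen, moved contacts inside block 1 to -0.95 in ESCs and -0.91 in MNs, inside block 2 to -0.83 and -0.75, and in MNs across the edges to -0.42 (block 1) and -0.14 (block 2). Edges at the steps, also added later, moved block 2 in ESCs to -0.73 inside and -0.078 across, and to -0.24 across in MNs. The flanks as reference moved block 1 in MNs to -0.98 inside, -0.44 across and 0.48 spanning, and block 2 to -0.77 inside in ESCs, and to -0.76 inside and -0.080 across in MNs. The adjusted frequencies gave, in MNs, -1.02 inside and -0.53 across for block 1, and -0.90 and -0.27 for block 2. Autosomal totals gave -0.41 across block 2 in MNs. Only pairs with a mean count of at least 10 gave -0.87 across and 2.43 spanning (2 pairs) for block 1 and -0.71 inside block 2 in ESCs, and in MNs -1.42 across block 1 and -1.06 inside and -0.85 across block 2. This filter left no pair for spanning contacts of block 2, or of block 1 in MNs. Contacts up to 400 kb gave -0.67 across block 1 and -0.34 across block 2 in ESCs, and in MNs -0.82 across block 1 and -1.06 inside and -0.55 across block 2. Without contacts within 1 bin, block 2 stood at -0.86 in ESCs and -1.09 in MNs, and smaller by 5 bins at each edge at -0.77 and -1.07. At a threshold of -0.75 in place of -0.5, 99 bins of block 2 passed in ESCs in place of 172. With contacts up to 40 kb, the right step of block 2 in ESCs lay at 98296000 and that of block 1 in MNs at 88032000. The cause of each move was not tested. Depth limits what is said of distant pairs, most of which hold few contacts.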
